A study of Rattus norvegicus with 12 samples.

Results

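The 7 genes described here are used as markers of the inhibitory neurons of the cortex, although Cck is also made by many pyramidal neurons. The genes are Gad1 (ENSRNOG00000000007), Gad2 (ENSRNOG00000018200), Pvalb (ENSRNOG00000006471), Sst (ENSRNOG00000001837), Vip (ENSRNOG00000018808), Npy (ENSRNOG00000046449) and Cck (ENSRNOG00000019321). They were picked by Ensembl identifier, as genes of GABA synthesis or of interneuron classes. All 7 were among the 16534 features of the table, and all 7 were among the 14985 features tested. The symbols were given together with the identifiers when the genes were chosen. The reference table paired 0 of the 16534 identifiers with a symbol, so the pairing was not checked against an annotation. For the same reason the tissue was not checked against its other markers, and marker genes of glia, blood vessels, excitatory neurons or neighbouring striatum were not analysed here.

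RNA from the motor cortex of 12 rats was sequenced, 3 rats in each of 4 groups. Control rats are titled only as controls, and were taken to have neither lesion nor stimulation. PD rats carried the 6-hydroxydopamine (6-OHDA) model of Parkinson's disease, in which this toxin is used to destroy dopamine neurons. Stimulated control and stimulated PD rats received electrical stimulation of the cortex; model rats received it through a graphene array over primary motor cortex, pulsed at 130 Hz, 1 hour daily over 2 weeks. Whether stimulated control rats had the same array and schedule is not stated: the series' design text describes 3 groups, and the labels give 4. Strain, sex, age, the side of the lesion, and whether unstimulated rats had a sham operation or an array without current are not stated in any source used. Below, lesioned rats are the 6 with the model, stimulated or not, and the other 6 are unlesioned; the extent of the lesion was not measured in these files.

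Inhibitory neurons make GABA, the main inhibitory transmitter of the cortex, from glutamate by glutamic acid decarboxylase, which Gad1 and Gad2 encode. Cortical interneurons fall into classes that carry different markers. Fast-spiking basket and chandelier cells contain parvalbumin (Pvalb), cells that inhibit the dendrites of pyramidal neurons contain somatostatin (Sst), and cells that mostly inhibit other interneurons contain vasoactive intestinal peptide (Vip). Neuropeptide Y (Npy) is made by part of the somatostatin cells and by neurogliaform cells. Cholecystokinin (Cck) is made by a class of basket cells and also by many pyramidal neurons, so its level is no measure of interneurons alone.

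The upstream sequences of Vip and Npy are shown because these were the members that differed between lesioned and unlesioned rats, in opposite directions. They are the 250 bases before the annotated gene start, from RefSeq on the GRCr8 assembly, which is not the mRatBN7.2 build named for the deposited values. The Vip window is chr1:44470230-44470479 on the plus strand and the Npy window is chr4:80211861-80212110 on the plus strand. Capitals mark the searched motifs.
Vip: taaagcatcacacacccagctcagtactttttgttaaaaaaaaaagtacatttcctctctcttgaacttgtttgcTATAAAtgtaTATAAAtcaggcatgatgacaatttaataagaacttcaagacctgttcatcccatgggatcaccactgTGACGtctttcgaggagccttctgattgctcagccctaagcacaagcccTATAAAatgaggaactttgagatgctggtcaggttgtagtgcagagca
Npy: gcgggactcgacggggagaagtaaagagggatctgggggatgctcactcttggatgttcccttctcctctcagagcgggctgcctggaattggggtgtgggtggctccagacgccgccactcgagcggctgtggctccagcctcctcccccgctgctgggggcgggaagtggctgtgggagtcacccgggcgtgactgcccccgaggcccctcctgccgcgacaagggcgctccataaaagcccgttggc
The motifs were the cAMP response element TGACGTCA, its shortened form TGACG, which lies within the full element, and the TATA box TATAAA, each on both strands. The Vip window held TGACG at positions -97 to -93 and 3 matches to TATAAA, of which that closest to the gene start lay at -48 to -43, counted backward from -1 at the base before the start. The Npy window held none of these. Among 33469 windows of the same length, 18.2% held TGACG, 12.9% held TATAAA and 1.59% held the full element. Of the 7 genes, 6 were matched in the promoter table; Cck was not. Within the windows of these 6, TGACG was found in Vip and Pvalb, TATAAA in Vip and Gad1, and the full element in 0. Bases outside the windows were not searched, so a gene without a match here may hold the motif just past its annotated start. A match describes the letters only, and binding was not measured. The windows also differed in base composition, with 40.0% G and C for Vip and 67.6% for Npy.

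Each library held 42905441 to 62082830 counted reads. The 7 genes were well covered: the fewest reads behind any value were 911, for Npy, and the most were 25631, for Cck. The widest exact Poisson 95% interval, also for Npy, reached 6.55% of the value to either side, and such intervals cover counting error only. Levels are given as CPM, a library's read counts put on a common total, which are not scaled by gene length, so levels are compared between rats and not between genes. The 10 most abundant features of each library took 9.68% to 12.3% of reads in lesioned and 7.64% to 8.71% in unlesioned rats. Over all tested features the median log2 fold change of lesioned against unlesioned rats was -0.12 in CPM and 0.01 after TMM scaling. That scaling is meant to correct for such differences in composition. It presumes that most features do not differ, so a median near 0 follows from the method. Whether composition gave the shift in CPM was not tested. The part that this difference in composition has in the results below was not tested beyond the rescaled values given beside them. In tissue RNA, fewer cells of a type and less RNA per cell cannot be told apart.

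**Figure D1:**
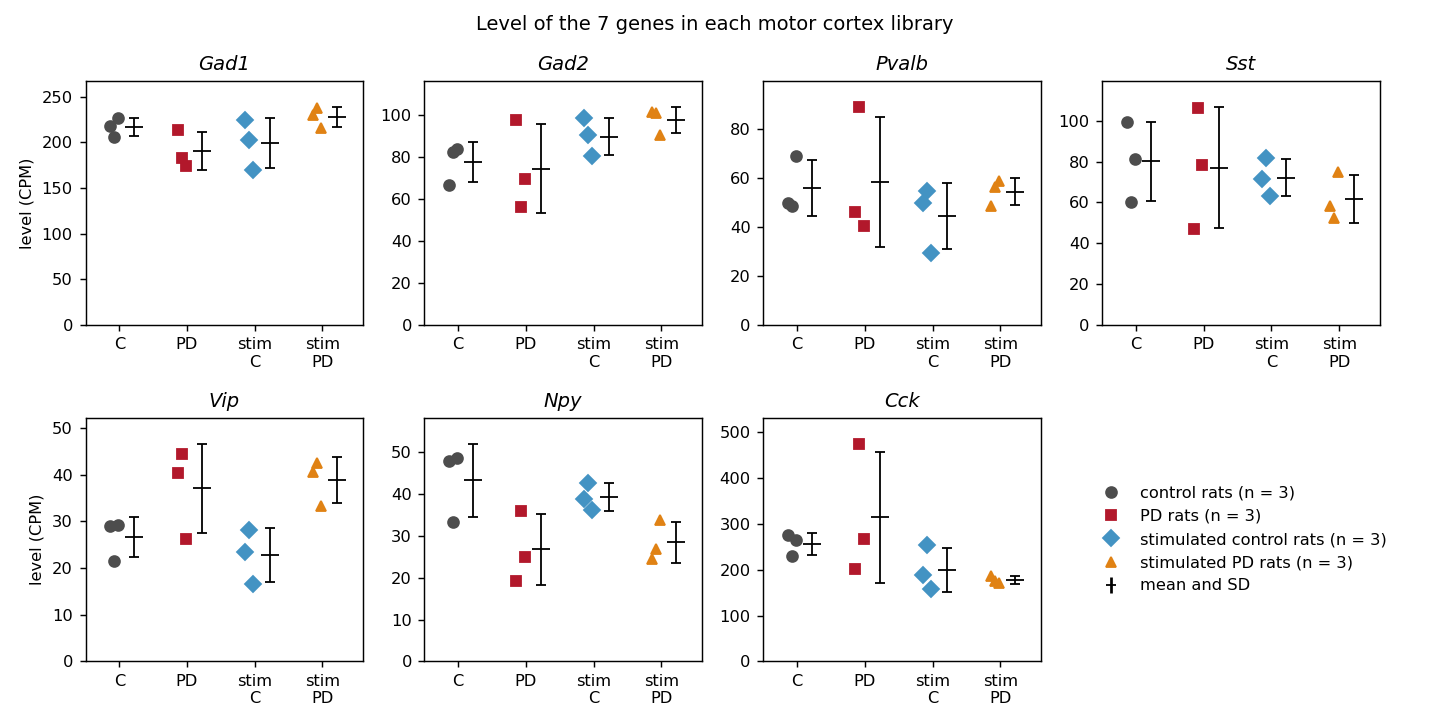
Level of each of the 7 genes in CPM (vertical axes, starting at 0) in the 4 groups (C, control; stim, stimulated), with 1 point per rat and the mean and SD of 3 rats beside it. Vip is higher and Npy lower in both lesioned groups than in the corresponding unlesioned groups, and 1 PD library lies far above the other PD libraries for Cck and Pvalb.

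Vip, which marks the interneurons that inhibit other interneurons, was more abundant in lesioned rats. Its level was 29.0, 21.6 and 29.2 CPM in control rats 1 to 3 and 40.4, 44.4 and 26.3 CPM in PD rats. In stimulated control rats it was 23.4, 28.1 and 16.6 CPM, and in stimulated PD rats 40.6, 42.5 and 33.2 CPM. Thus 5 of the 6 lesioned rats lay above the highest unlesioned rat, and PD rat 3 lay inside the unlesioned range. Without stimulation the mean was 26.6 ± 4.35 CPM in control and 37.0 ± 9.52 CPM in PD rats, and with stimulation 22.7 ± 5.81 and 38.8 ± 4.91 CPM (SD, n = 3). By limma, Vip rose 1.53-fold in lesioned rats averaged over stimulation (log2 fold change 0.62, SE 0.16, limma adjusted p = 0.0200), and 99.4% of tested features had a lower log2 fold change.

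In the stimulated pair Vip did not overlap: every stimulated PD rat was above every stimulated control rat, with a log2 difference of 0.78 (SE 0.23, limma adjusted p = 0.0709). In the unstimulated pair the libraries overlapped, with a log2 difference of 0.45 (SE 0.23, limma adjusted p = 0.254). Neither pair passed alone, and the difference between the pairs was 0.33 (95% interval -0.37 to 1.04, limma adjusted p = 0.834). After TMM scaling the averaged difference in Vip was larger, at 0.76 (limma adjusted p = 0.0114). It missed the threshold without control rat 2 (0.55, limma adjusted p = 0.0526) and without stimulated control rat 3 (0.51, limma adjusted p = 0.0502).

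Npy, which encodes a peptide that dampens transmitter release, went the other way. Its level was 47.9, 33.2 and 48.7 CPM in control rats 1 to 3 and 19.3, 35.9 and 25.05 CPM in PD rats. Stimulated control rats had 38.8, 42.8 and 36.2 CPM, and stimulated PD rats 24.6, 26.9 and 33.8 CPM. Here 4 of the 6 lesioned rats lay below the lowest unlesioned rat, and 5 of the 6 unlesioned rats lay above the highest lesioned rat, with control rat 2 and PD rat 2 as the libraries of most overlap. Without stimulation the mean Npy level was 43.3 ± 8.72 CPM in control and 26.8 ± 8.45 CPM in PD rats, and with stimulation 39.2 ± 3.30 and 28.4 ± 4.80 CPM (SD, n = 3). Npy fell 1.502-fold in lesioned rats averaged over stimulation (log2 fold change -0.59, SE 0.15, limma adjusted p = 0.0203), and 12.2% of tested features had a lower log2 fold change.

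The log2 difference of Npy was -0.71 in the unstimulated pair (SE 0.22, limma adjusted p = 0.0798), where libraries overlapped, and -0.47 in the stimulated pair (SE 0.22, limma adjusted p = 0.197), where they did not. Unlike that of Vip, the call of Npy depended on scaling. It was lost after TMM scaling (-0.45, limma adjusted p = 0.0797), with median-of-ratios factors (-0.46, limma adjusted p = 0.0735), after quantile normalization (-0.47, limma adjusted p = 0.0556), by edgeR (-0.44, adjusted p = 0.0801) and by DESeq2 (-0.44, adjusted p = 0.0522). It was also lost without control rat 1 (limma adjusted p = 0.0543) or stimulated PD rat 1 (limma adjusted p = 0.0518). The sign was negative under all 23 alternatives tried for this difference.

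**Figure D2:**
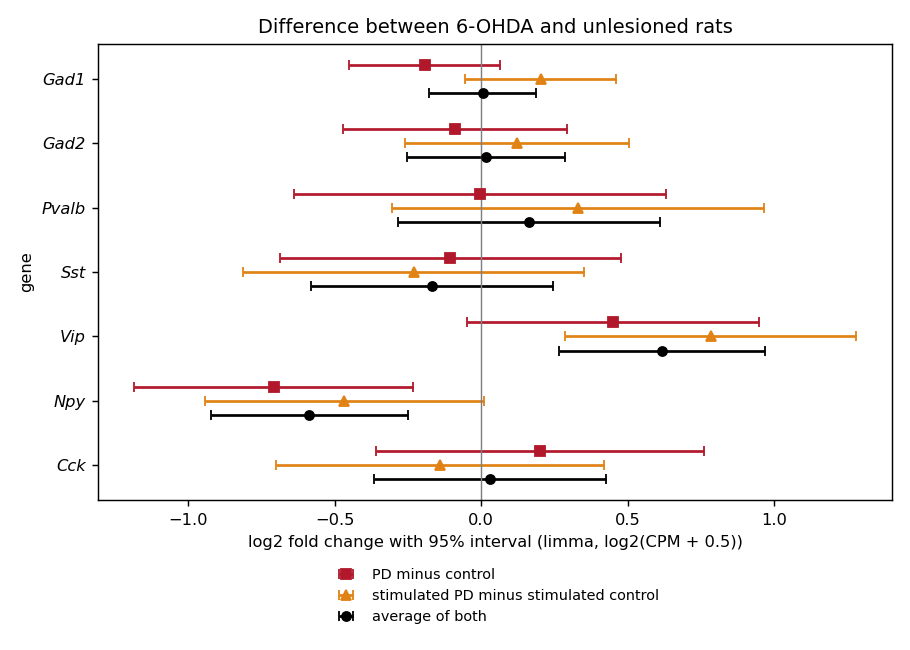
Log2 fold change between lesioned and unlesioned rats (horizontal axis, limma on log2(CPM + 0.5)) for each gene, with 95% intervals, in unstimulated rats (squares), in stimulated rats (triangles) and averaged (circles). The averaged intervals of Vip and Npy lie on opposite sides of 0, and those of the other 5 genes include 0.

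Over the 7 genes, 2 passed the test in the averaged comparison of lesioned with unlesioned rats (28.6%), where 23.0% of all tested features did. Calls of higher level, as for Vip, were made for 4.99% of features, and calls of lower level, as for Npy, for 18.0%. The share among the 7 genes is near that background. Of all calls 78.3% were of lower level in CPM and 45.9% after TMM scaling. The median log2 fold change of the 7 genes was 0.02, against -0.12 over all tested features. Relative to that median, Vip stood at 0.74 and Npy at -0.47. The 6 lesioned and 6 unlesioned libraries did not overlap for 9.36% of features and for 0 of the 7 genes. Between PD and control rats 0 of the 7 genes passed, where 4.38% of features did (93.6% of these calls of lower level in CPM, 68.6% after TMM scaling), and libraries did not overlap for 0 of them, where 29.1% of features did not. Between stimulated PD and stimulated control rats 0 passed as well, where 1.45% of features did (69.6% of lower level in CPM, 31.2% after TMM scaling), and 2 genes, Vip and Npy, did not overlap, where 41.4% of features did not.

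RNA levels of the enzymes of GABA synthesis did not differ detectably with the lesion. Gad1 stood at 218, 206 and 226 CPM in control rats 1 to 3, at 214, 183 and 174 CPM in PD rats, at 224, 203 and 170 CPM in stimulated control rats and at 230, 238 and 216 CPM in stimulated PD rats. PD rats 2 and 3 and stimulated control rat 3 were the lowest of the 12 libraries. The averaged log2 difference of Gad1 between lesioned and unlesioned rats was 0.01 in CPM, with a 95% interval of -0.18 to 0.19 (limma adjusted p = 0.971). After TMM scaling the averaged difference of Gad1 was 0.15 (limma adjusted p = 0.247). Its estimates in the separate pairs had opposite signs, -0.19 without and 0.20 with stimulation. Their difference of 0.40 (SE 0.17) had an unadjusted limma p of 0.0350 and an adjusted p of 0.834, so it failed the correction.

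Gad2, the other decarboxylase gene, had 66.7, 82.3 and 83.9 CPM in control, 97.6, 56.3 and 69.5 CPM in PD, 98.5, 90.5 and 80.4 CPM in stimulated controls and 102, 101 and 90.4 CPM in stimulated PD rats. PD rats held both the lowest value and a value near the top. The averaged lesion difference was 0.02 in CPM (95% interval -0.25 to 0.29, limma adjusted p = 0.935). After TMM scaling the averaged difference of Gad2 was 0.16 (limma adjusted p = 0.356). Between PD and control rats the estimate was -0.09 in CPM and 0.08 after TMM scaling, so its sign depended on scaling.

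Pvalb, which encodes the calcium-binding protein of fast-spiking cells, had 49.9, 48.4 and 68.9 CPM in control, 46.1, 88.9 and 40.4 CPM in PD, 49.8, 54.6 and 29.2 CPM in stimulated controls and 48.4, 56.1 and 58.7 CPM in stimulated PD rats. PD rat 2 had the highest level of all libraries and stimulated control rat 3 the lowest. The averaged lesion difference was 0.16 with a wide 95% interval of -0.28 to 0.61 (limma adjusted p = 0.592). A small fall of Pvalb or a larger rise within that interval was therefore not excluded. After TMM scaling the averaged difference was 0.31 (limma adjusted p = 0.351). Between PD and control rats the difference was -0.0037 (SE 0.29), 0.16 after TMM scaling and -0.35 without PD rat 2.

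Sst, the peptide gene of the dendrite-targeting cells, had 99.2, 60.4 and 81.2 CPM in control, 46.9, 106 and 78.2 CPM in PD, 71.5, 81.8 and 63.3 CPM in stimulated controls and 58.4, 52.3 and 75.0 CPM in stimulated PD rats. The groups overlapped throughout, and PD rats 1 and 2 were the lowest and the highest of the 12. The averaged lesion difference of Sst was -0.17 (95% interval -0.58 to 0.24, limma adjusted p = 0.546). After TMM scaling the averaged difference of Sst was -0.03 (limma adjusted p = 0.941). Its estimate between PD and control rats was -0.11 in CPM and 0.06 after TMM scaling.

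Cck had 275, 230 and 265 CPM in control rats, 201, 474 and 267 CPM in PD rats, 188, 253 and 158 CPM in stimulated controls and 187, 175 and 171 CPM in stimulated PD rats. PD rat 2 was far above every other library, and the stimulated PD rats were tightly grouped at the low end. The averaged lesion difference of Cck was 0.03 (95% interval -0.37 to 0.43, limma adjusted p = 0.920). After TMM scaling the averaged difference of Cck was 0.17 (limma adjusted p = 0.56). Without PD rat 2 the mean of PD rats was 234 CPM, against 314 ± 143 CPM with it (SD, n = 3), and the log2 difference from control turned from 0.20 to -0.14.

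PD rat 2 stood apart for these genes beyond Cck. It was the highest of the 12 libraries for Pvalb, Sst, Vip and Cck and the lowest for Gad2. Its 10 most abundant features took 11.6% of its reads, which was not the highest share: stimulated PD rat 3 had 12.3%. Its TMM factor of 0.870 and median-of-ratios factor of 0.874 were, however, the lowest of the 12 libraries. Stimulated PD rat 3 had 0.936 and 0.930. Without PD rat 2 the averaged lesion difference was 0.54 for Vip (limma adjusted p = 0.02997) and -0.70 for Npy (limma adjusted p = 0.00706). Both calls were therefore made without this library too. The spread within the PD group was large in general: the median SD on the log2 scale over all tested features was 0.29 in PD rats and 0.13 to 0.16 in the other groups. For Cck it was 0.63 in PD and 0.06 in stimulated PD rats, and for Pvalb 0.60 and 0.14. Of all tested features, 92.2% had a smaller spread than Cck in PD rats and 18.3% in stimulated PD rats.

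The ratio of Vip to Npy within a library is not changed by scaling that library. This pair was chosen because Vip was called higher and Npy lower in lesioned rats, so the ratio restates that choice and is given as a description, with no test. The ratio of Vip to Npy CPM was 0.604, 0.649 and 0.600 in control rats 1 to 3 and 0.604, 0.658 and 0.458 in stimulated control rats. It was 2.09, 1.24 and 1.05 in PD rats and 1.65, 1.58 and 0.983 in stimulated PD rats. A high ratio does not mean that both genes differed in that rat: PD rat 3 had 26.3 CPM of Vip, inside the unlesioned range, and 25.05 CPM of Npy, below it. The highest unlesioned ratio, 0.658, lay below the lowest lesioned one, 0.983, so the 6 lesioned libraries were separate from the 6 unlesioned ones, which neither gene was alone. The mean log2 ratio was -0.70 ± 0.06 in control against 0.48 ± 0.52 in PD rats, and -0.82 ± 0.27 against 0.45 ± 0.42 in their stimulated counterparts (SD, n = 3). Of the 21 ratios between pairs of the 7 genes, 3 separated lesioned from unlesioned libraries in this way: Vip to Npy, Gad1 to Vip and Pvalb to Npy. All 3 contain Vip or Npy, the genes already called. Over all 112267620 pairs of tested features, 7.99% of ratios did so, a count added after the values were seen.

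**Figure D3:**
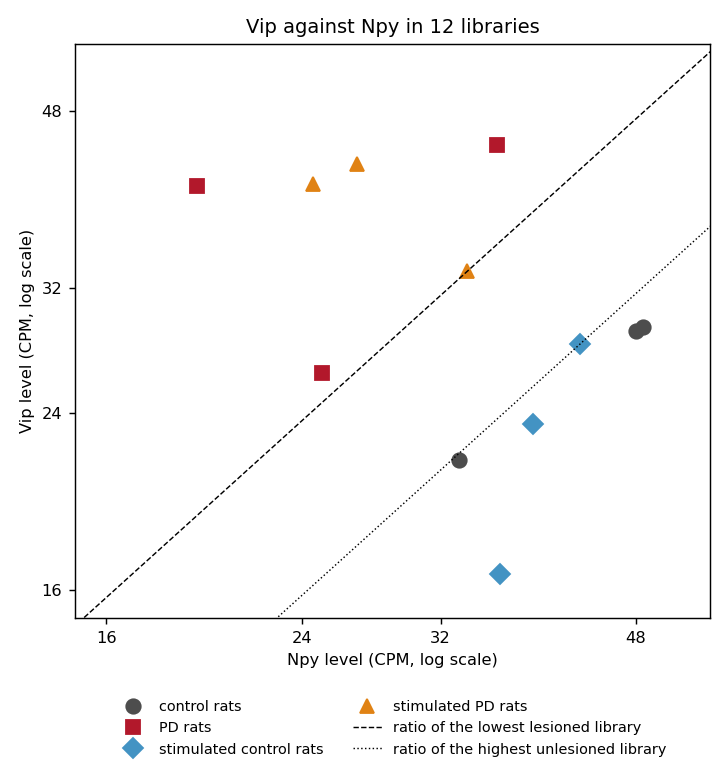
Vip level against Npy level (both in CPM, both axes on a log scale) with 1 point per library. The dashed line marks the lowest ratio among lesioned libraries, 0.983, and the dotted line the highest among unlesioned ones, 0.658; no library lies between the lines, whose positions are set by these ratios.

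Relative to Gad2, which inhibitory neurons of every class make, the mean log2 ratio of Vip was -1.55 ± 0.37 in control against -1.01 ± 0.58 in PD rats, and -2.01 ± 0.30 against -1.34 ± 0.10 in their stimulated counterparts (SD, n = 3). That of Npy was -0.86 ± 0.42 against -1.49 ± 0.84, and -1.19 ± 0.14 against -1.79 ± 0.33 with stimulation. Both kept the direction of their levels in each pair of groups, although the 6 lesioned libraries overlapped the 6 unlesioned ones for each ratio. The log2 ratio of Gad1 to Gad2 was 1.49 ± 0.20 in control against 1.38 ± 0.29 in PD rats, and 1.14 ± 0.06 against 1.22 ± 0.04 with stimulation.

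Stimulation in model rats was read from stimulated PD against PD rats. Whether PD rats had an array or a sham operation is not stated. Current therefore cannot be told apart from the array and its placement, and the same holds for the unlesioned rats below. Between stimulated PD and PD rats 0 of the 7 genes passed. No other feature passed either (0% of 14985 by limma, with 17.4% at an unadjusted p under 0.05; edgeR called 0 and DESeq2 907). At an unadjusted p under 0.05 there were 3 members. Gad1 and Gad2 had higher estimates, by 0.26 (SE 0.12, limma adjusted p = 0.282) and 0.42 (SE 0.18, limma adjusted p = 0.269), and Cck a lower one, by -0.73 (SE 0.26, limma adjusted p = 0.249). Gad1 and Cck were the 2 genes whose libraries did not overlap between these groups, where 14.2% of features did not.

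For Cck, 3 stimulated PD rats at 171 to 187 CPM stood below 3 PD rats at 201 to 474 CPM. Single PD libraries moved this difference: it was -0.38 without PD rat 2 (limma adjusted p = 0.564) and -1.001 without PD rat 1 (limma adjusted p = 0.0202). By DESeq2 it was -0.92 (adjusted p = 0.0344) and by edgeR -0.91 (adjusted p = 0.149). For Gad2 the estimate was 0.24 without PD rat 2 (limma adjusted p = 0.631) and 0.64 without PD rat 1 (limma adjusted p = 0.0170). Of all tested features, 0% were called by limma without PD rat 2 and 19.6% without PD rat 1. The estimates of Vip (0.09, 95% interval -0.40 to 0.59) and Npy (0.12, 95% interval -0.36 to 0.59) were small. Both intervals include 0 and changes in either direction, so whether stimulation moved either gene within these limits was not resolved.

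In unlesioned rats stimulation gave 0 calls among the 7 genes and among all features (0%, with 1.79% at an unadjusted p under 0.05; edgeR and DESeq2 also called 0). No member reached an unadjusted limma p under 0.05, and 0 had libraries that did not overlap, where 8.88% of features did not. The largest estimates were -0.38 for Cck (SE 0.26) and -0.35 for Pvalb (SE 0.29), both with a limma adjusted p of 1.00. Stimulated control rat 3 had the lowest level of the 12 libraries for Gad1, Pvalb, Vip and Cck. The difference between the stimulation contrasts of lesioned and unlesioned rats was tested as an interaction, in which a difference of schedule between the stimulated groups, if any, cannot be told apart from the lesion. It was called for 0 of the 7 genes and for 0% of features by limma, with 4.13% at an unadjusted p under 0.05, Gad1 among them; edgeR called 0 features and DESeq2 30.

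**Figure D4:**
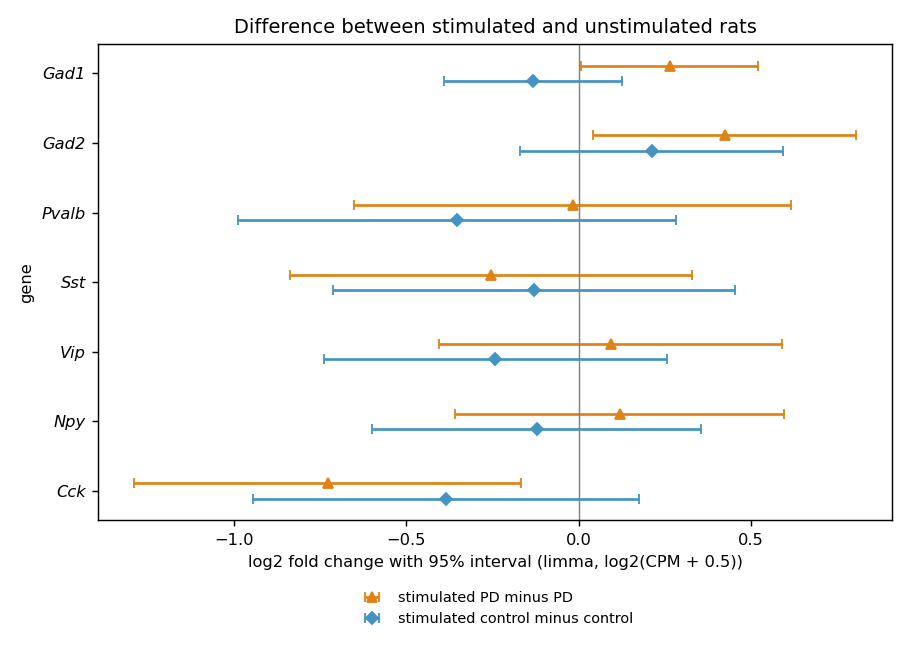
Log2 fold change between stimulated and unstimulated rats (horizontal axis, limma on log2(CPM + 0.5)) for each gene, with 95% intervals, in lesioned rats (triangles) and unlesioned rats (diamonds). The intervals of Gad1, Gad2 and Cck in lesioned rats do not include 0, but none of these passed after adjustment over all features.

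Stimulated PD rats were last set beside unstimulated control rats. This comparison shares the control libraries with that of PD rats. By limma 0 of the 7 genes passed, where 0.0334% of features did. Libraries did not overlap for 3 genes, where 41.4% of features did not: Gad2 (log2 difference 0.33, SE 0.18, limma adjusted p = 0.290) and Vip (0.54, SE 0.23, limma adjusted p = 0.208) were higher in each stimulated PD rat, and Cck (-0.53, SE 0.26, limma adjusted p = 0.261) was lower. With the spread taken from these 6 rats alone, Vip (limma adjusted p = 0.0434) and Cck (limma adjusted p = 0.0124) passed. In that fit 2861 features (19.1%) did. The log2 difference of Npy from control was -0.59 (SE 0.22, limma adjusted p = 0.168), with stimulated PD rat 3 inside the control range.

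By the order of the group means, each gene had its own pattern. Vip ran from stimulated PD and PD down to control and stimulated control, and Npy from control and stimulated control down to stimulated PD and PD. Gad1 and Gad2 were highest in stimulated PD and lowest in PD rats, whereas Pvalb and Cck had their highest mean in PD rats, set by PD rat 2. Sst ran from control through PD and stimulated control to stimulated PD. Libraries of neighbouring groups in these orders overlapped for every gene, except those of stimulated control and stimulated PD rats for Npy.

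**Figure D5:**
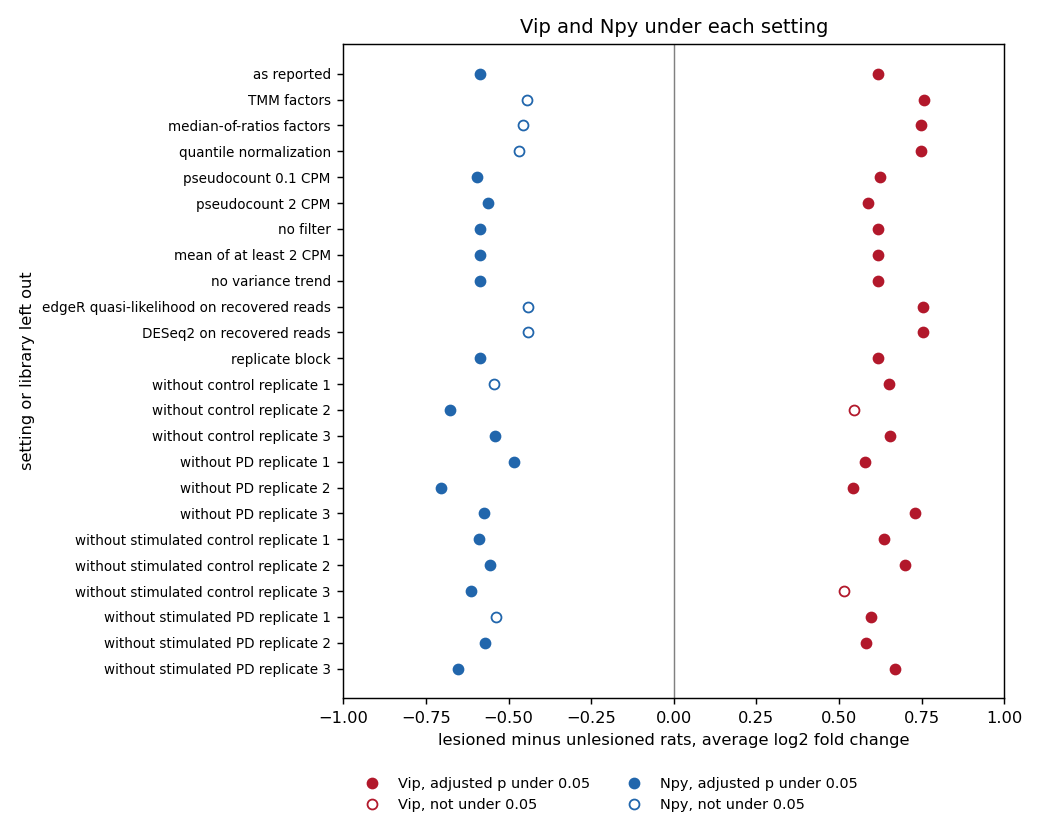
Averaged log2 fold change of Vip and Npy between lesioned and unlesioned rats (horizontal axis) under each setting or with each library left out (rows), filled where the adjusted p was under 0.05. Vip ranges from 0.51 to 0.76 and Npy from -0.70 to -0.44, and the open points show where either call was lost.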

How the data were processed

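Poly(A) RNA of the motor cortex of 12 rats was sequenced from stranded libraries, per the labels' protocols. The authors deposited 1 table of CPM per Ensembl gene, reads scaled to a common library total. Trim Galore, STAR, featureCounts and the mRatBN7.2 build are named in the submitters' processing notes, without versions. Each value was a whole multiple of 1 read (100% of values within 0.001), so reads were recovered for the count tests.

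The 14985 features averaging 0.5 CPM or more were tested by limma 3.58.1 (R 4.3.3) on log2(CPM + 0.5), with a variance trend, 12 libraries and 1 coefficient per group. P-values were adjusted by Benjamini-Hochberg over all tested features, and features were called at an adjusted p under 0.05. The script was tested on simulated data with the same spread in every group, so that test does not cover the larger spread of PD rats. Alternatives were TMM, median-of-ratios and quantile scaling, pseudocounts of 0.1 and 2 CPM, no filter, a mean of at least 2 CPM, no variance trend, only the groups compared, edgeR 4.0.16, DESeq2 1.42.0, a replicate block and leaving out each library.

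The 7 genes and the comparisons were chosen with earlier results of these data known, and all 7 are named. P-values measure the spread between rats as labelled; extraction and sequencing batches are not stated in any source used. Other pathway and cell type lists were not analysed here, because identifiers could not be paired with symbols. For the same reason the features of most similar pattern, found by identifier only, could not be named and are not reported here.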

Additional observations from a re-analysis of the deposited data

How the results depend on the processing

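Of 1162 member values under an alternative, 1092 kept their direction and side of the threshold, 52 changed sign, 9 lost and 9 gained a call. Most of the 1092 were uncalled values that stayed uncalled. Of the 49 values behind them, only those of Vip and Npy averaged over stimulation were called as reported. Of the 23 alternatives for that comparison, 21 called Vip, 16 called Npy and 14 called both. Lesioned against unlesioned, 1 gene (Vip) instead of 2 passed under TMM, median-of-ratios and quantile scaling, edgeR and DESeq2. Under these settings 21.5% (quantile scaling) to 29.1% (DESeq2) of all features were called. Stimulated PD against stimulated control, 1 gene (Vip) passed with only the groups compared (14.4% of all features called) and by DESeq2 (13.5%). Stimulated PD against control, 2 passed with only the groups compared (19.1% of all features). Stimulated PD against PD, 1 (Cck) passed by DESeq2 (6.05% of all features). With single libraries left out, member calls ranged from 1 to 2 averaged over stimulation, where 12.6% to 30.7% of all features were called. They ranged from 0 to 1 in the stimulated pair, 0 to 2 for stimulated PD against PD, and 0 to 0 elsewhere. The 2 in stimulated PD against PD were Gad2 and Cck without PD rat 1, where 19.6% of all features were called. Vip passed in the stimulated pair without PD rat 2 (limma adjusted p = 0.0393) or stimulated control rat 2 (limma adjusted p = 0.0469). Of all features, 15% and 5.84% were called in these 2 fits.

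Some estimates, none of them called, changed sign. Against control in PD rats, Gad2 was 0.077 under TMM, 0.071 under median-of-ratios, 0.085 by edgeR and 0.088 by DESeq2; Pvalb was 0.16, 0.16, 0.23 and 0.24, and 0.088 under quantile scaling; Sst was 0.061, 0.054, 0.10 and 0.11. In stimulated PD against control, Pvalb was 0.064 under TMM, 0.050 under median-of-ratios, 0.036 under quantile scaling, 0.042 by edgeR and 0.036 by DESeq2. In stimulated PD against PD, Vip was -0.022 by edgeR and -0.035 by DESeq2, and Npy was -0.00072 by DESeq2. With single libraries left out, PD against control ranged from -0.30 to 0.092 for Gad2, -0.35 to 0.22 for Pvalb, -0.37 to 0.21 for Sst and -0.14 to 0.48 for Cck. Averaged over stimulation, the range was -0.050 to 0.051 for Gad1, -0.090 to 0.11 for Gad2, -0.0088 to 0.27 for Pvalb and -0.14 to 0.17 for Cck. Stimulated PD against PD, it was -0.24 to 0.33 for Pvalb, -0.57 to 0.014 for Sst, -0.13 to 0.24 for Vip and -0.089 to 0.35 for Npy. It was -0.30 to 0.043 for Cck in the stimulated pair, -0.32 to 0.037 for Sst in stimulated control against control, -0.11 to 0.14 for Pvalb in stimulated PD against control, and -0.44 to 0.14 for Sst and -0.62 to 0.0017 for Cck in the interaction. The cause of these changes was not tested.

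Rats with the same number in their titles mostly did not deviate together (r from -0.46 to 0.36, 3 of 18 pairs over 0.1). Of 12 libraries, 2 correlated best with their own number. With 3 rats per group this cannot exclude a pairing or a shared batch. The column names number the PD rats and stimulated PD rat 3 differently, and pairing by those numbers was not tried. With the replicate block the same 2 members passed averaged over stimulation (Vip adjusted p = 0.0219, Npy adjusted p = 0.0350, limma) and 0 elsewhere, and 282 features were called in PD against control in place of 657, 2 in place of 217 in the stimulated pair, 2707 in place of 3451 averaged over stimulation, and 2 in place of 5 in stimulated PD against control.

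The number of all features called also moved. PD against control had 657, with 320 under quantile scaling, 2037 by DESeq2 and as few as 4 without control rat 1. The stimulated pair had 217, with 552 under TMM, 14 under median-of-ratios, 712 under quantile scaling, 41 with no filter, 33 with no variance trend, 2161 with only the groups compared, 15 by edgeR and 2019 by DESeq2, and from 2 (for example without stimulated PD rat 2) to 2256 (without PD rat 2) with 1 library left out. Stimulated PD against control had 5, with 2861 for only the groups compared, 1046 by DESeq2 and 1227 without PD rat 2. Stimulated PD against PD had 0, with 907 by DESeq2, 2943 without PD rat 1 and 327 without stimulated PD rat 3. Averaged over stimulation it was 3451, and 1881 without stimulated control rat 3. Slc32a1 as the reference in place of Gad2 was not run.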
